A study of Mus musculus with 6 samples.

Results

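The arginase and polyamine genes described here were 9 genes taken by name from the gene table: the arginases Arg1 and Arg2, the polyamine synthesis genes Odc1, Amd1, Srm and Sms, the acetyltransferase gene Sat1, the antizyme gene Oaz1 and the antizyme inhibitor gene Azin1. Each name matched 1 of the 53278 rows, and 8 of the 9 genes had enough counts to be among the 14361 genes tested. Group 2 innate lymphoid cells (ILC2s) are lymphocytes without antigen receptors that secrete type 2 cytokines. They were sorted from visceral adipose tissue of C57BL/6 mice, 8 weeks old, as cells without lineage markers (CD11b, a myeloid marker, among them) and with CD45, ST2 and CD117. The mice of both groups had received 3 intraperitoneal injections of 1 µg IL-33, and the cells of both groups were cultured for 48 h, per the labels (the study's text also gives a shorter time), with IL-2 (10 ng/mL) and IL-7 (10 ng/mL). To this was added the isotype control antibody or DTA-1 (5 µg/mL), an agonistic antibody to the costimulatory receptor GITR, and 3 libraries of each group were made from 10 ng of RNA. The sample titles and methods name the control as isotype, whereas the headers of its counts read PBS. Neither the labels nor the methods say whether the libraries of a group came from separate mice or cultures, so the p-values measure only the spread between these libraries, which may be technical.

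Arginase splits arginine into urea and ornithine, and ornithine decarboxylase (ODC) turns ornithine into putrescine in a step that often limits the rate of polyamine synthesis. Spermidine synthase and spermine synthase then add aminopropyl groups, which come from S-adenosylmethionine after its decarboxylation. Antizyme binds ODC and directs it to the proteasome, polyamines raise antizyme by making ribosomes change reading frame on its mRNA, and antizyme inhibitor takes antizyme away from ODC. ILC2s are known for constitutive arginase 1, and Odc1 is known as a target gene of MYC.

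The sequences of a pair of members show the control that acts on this pathway outside transcript abundance and the promoter of the member with the largest difference between the groups. The first is the frame change site of Oaz1 in mouse GRCm38, chr10:80828283-80828307, plus strand, read from GENCODE transcript Oaz1-205, in an exon of the gene. Capitals mark the sense codon TCC, the stop codon TGA of the frame that antizyme translation begins in, which starts at base 85 of this transcript, and the T that follows. The frame entered by moving 1 base forward had no stop over 151 codons, which is as far as this transcript runs. No start codon lies in the first frame of this transcript before the stop. The second is the promoter of Odc1, chr12:17544623-17544793, plus strand, from 250 bases before the RefSeq start to the base before the GENCODE start (RefSeq promoter table, GRCm38.p6). Its capitals mark GC boxes, searched as GGGCGG on both strands.
Oaz1 frame change site: cggtggtgcTCCTGATgtccctcac
Odc1 promoter: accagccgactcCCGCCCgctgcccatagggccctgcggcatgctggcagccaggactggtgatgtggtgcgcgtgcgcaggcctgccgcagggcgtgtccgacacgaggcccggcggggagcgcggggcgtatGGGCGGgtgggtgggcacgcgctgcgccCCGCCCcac

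The Odc1 stretch held 3 GC boxes in 171 bases, of which 77.2% were G or C. In windows from 250 bases before to 50 after a RefSeq start, 35.7% of all 32851 promoters held a GC box. The same window of Odc1 held neither the E-box CACGTG, the NF-κB motif nor TATAAA, which were found on either strand in 7.15%, 8.46% and 13.6% of all windows. The table had a window for Odc1, Amd1, Sms, Sat1 and Oaz1. Of these, Amd1 and Sat1 also held no E-box, NF-κB or TATAAA match. The GC boxes of members other than Odc1 are not given here. Oaz1 held an NF-κB motif and a TATAAA match, and the windows of Sms held NF-κB motifs and an E-box. These matches describe letters only, and bases further than 50 after a start were not searched.

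Total counts were 30569351 to 35131329 per library, and a count of 0 in a library allows up to 3 counts, which equals 0.0847 to 0.0970 normalized counts (this covers counting error only). Normalized counts are counts scaled to library size, as CPM after TMM normalization. The library labelled DTA-1 replicate 1 stood apart from its group. The chi-square of counts between a pair of libraries, divided by its degrees of freedom, would be about 1 if they differed by sampling alone. It was 10.1 to 11.9 between this library and the isotype control libraries, and 29.0 and 30.5 between it and DTA-1 replicates 2 and 3. Pairs of isotype control libraries gave 12.04 to 18.36, and DTA-1 replicates 2 and 3 gave 11.92 between them. By this measure DTA-1 replicate 1 was no further from any control library than the control libraries were from each other. The cause was not tested. The fold changes of single members and other pathway genes, where printed, are therefore given with and without this library. Leaving it out was chosen with its values known, and the p-values of that fit are not independent evidence. All 12 ILC2 markers listed had more than 3 counts, with a summed level of 12623 to 13574 normalized counts in isotype control and 13720 to 17772 in DTA-1. The cytokine gene Il5 carried most of that difference, with 5063 to 5493 normalized counts in isotype control and 5627, 9695 and 8899 in the DTA-1 libraries, whereas Icos was lower in DTA-1 replicates 2 and 3 (99.0 and 98.4) than in the other libraries (156 to 173).

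Of the 8 members tested, Odc1 had the largest difference between the groups, and its difference sat in DTA-1 replicates 2 and 3. The abundant transcripts Arg1 (0.931-fold of the control) and Oaz1 (0.912-fold) differed little, and no member met the criterion for a differentially expressed gene with all 6 libraries. That criterion was an adjusted p under 0.05 (quasi-likelihood test of edgeR, adjusted by Benjamini-Hochberg over all genes tested) and a change of at least 1.5-fold. It was met by 0 of the 8 members tested, against 0% of all 14361 genes, and the smallest adjusted p of any gene in edgeR was 0.452. By an unadjusted p under 0.05, edgeR gave 1 of 8 members, Odc1, against 7.22% of all genes. With 1.5-fold added it gave 0 of 8, against 2.35%. Without DTA-1 replicate 1, edgeR called 1 of 8 members, Odc1, against 0.744% of 14911 genes. With all 6 libraries DESeq2 called 0 of 9 members, against 0.152% of the 16435 genes it tested, and limma called 0 of 8, against 0%.

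**Figure D1:**
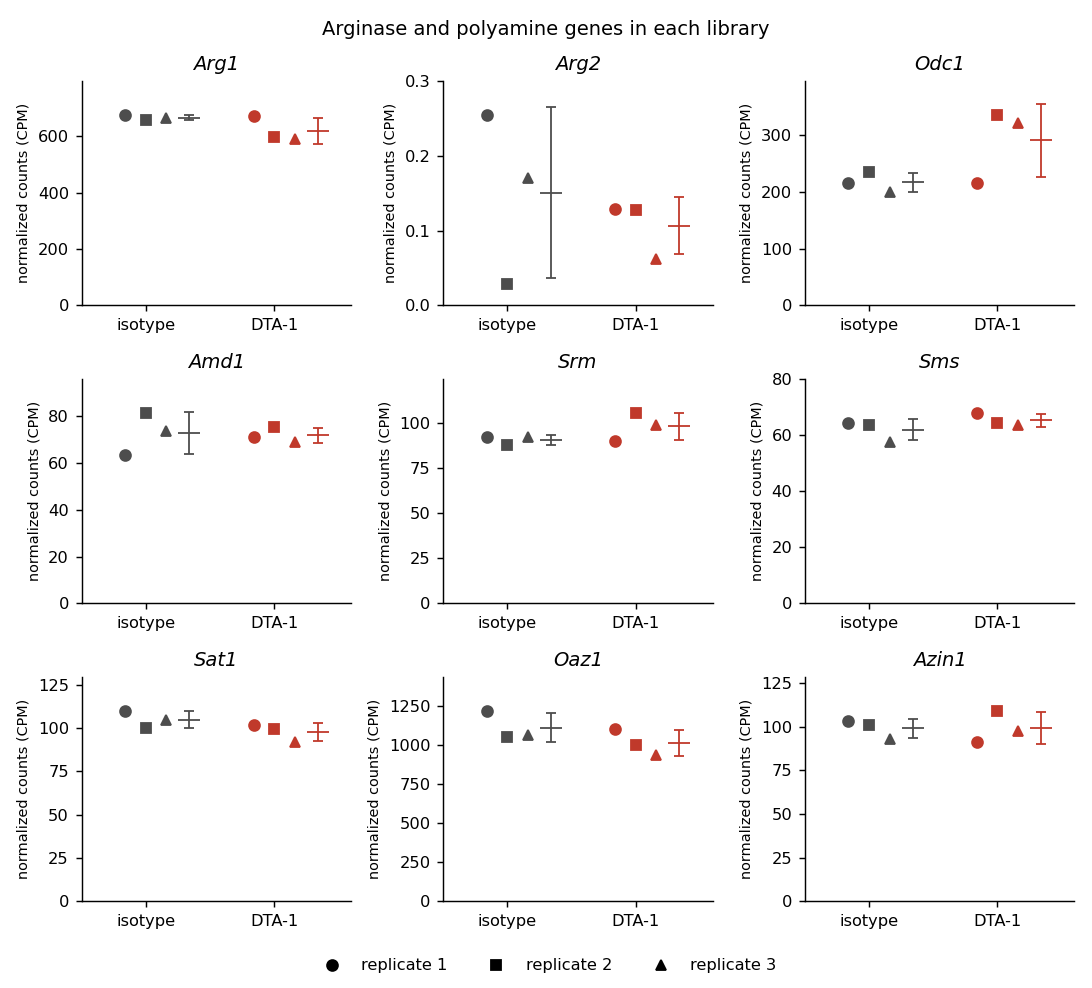
Normalized counts (CPM after TMM, linear axes from 0, a scale of its own for each gene) of the 9 genes in the 3 isotype control (grey) and 3 DTA-1 (red) libraries, with symbols for replicate number and the mean ± SD of each group at its right. In Odc1, DTA-1 replicates 2 and 3 (335.5 and 321.6) lie above the other 4 libraries (200.7 to 234.6), and DTA-1 replicate 1 (216.7) lies among the isotype control libraries.

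Arg1, the cytosolic arginase, lies on chromosome 10 from 24915221 to 24927484 on the minus strand (GRCm38, GENCODE M21). It had 675.0, 658.6 and 665.7 normalized counts in the control libraries and 672.8, 596.5 and 591.5 with DTA-1, each in the order of replicates 1, 2 and 3 that is kept throughout. DTA-1 replicates 2 and 3 were the lowest of the 6 libraries, and replicate 1 lay inside the control range, so the groups overlapped. The mean was 666 ± 8.26 (SD, n = 3) for the control and 620 ± 45.6 (SD, n = 3) for DTA-1. The log2 fold change was -0.10 (SE 0.07, 95% confidence interval -0.25 to 0.04), and edgeR's adjusted p was 0.757. With DTA-1 replicate 1 left out it was -0.17 (SE 0.05, interval -0.28 to -0.05), with an unadjusted p of 0.00798 and an adjusted p of 0.163 in edgeR. The interval with all libraries thus spans 0.842-fold to 1.03-fold of the control level. In bulk samples, fewer cells that express a gene and less RNA per cell cannot be told apart.

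Arg1 is also a gene of alternatively activated macrophages, so their markers are given beside it. Of 12 macrophage markers, 9 had more than 3 counts in at least 1 library. Their summed level was 6.79 to 13.1 normalized counts in the control libraries and 9.15, 20.9 and 49, in that order, with DTA-1. Chil3, a macrophage lectin gene, had 9.07 and 36.5 normalized counts in DTA-1 replicates 2 and 3 and at most 0.368 in the other libraries, and Cd68, a lysosomal gene of macrophages, had 10.6 and 6.71 in DTA-1 replicates 2 and 3 and 3.96 to 7.97 in the others. C1qb was at 0 in every library. Chil3 carried most of the higher sum in DTA-1 replicates 2 and 3. Lyz2 had 0.865 and 0.847 in these replicates and at most 0.707 in the other libraries. Adgre1 had 0.256 and 2.73 there against 1.81 to 3.77, and Cd14 had 0 and 0.408 against 0.342 to 0.565. Csf1r had 0.0961 and 0.471 there against 0 to 0.311, and Itgam had 0 and 0.502 against 0 to 1.13. Mrc1 and Retnla had 0.502 and 0.188 in DTA-1 replicate 3 and at most 0.0647 in any other library. C1qa and C1qc reached at most 0.0627. Arg1 was lowest in the same libraries in which the summed level was highest, and the part of such cells in its level was not tested.

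Arg2, the mitochondrial arginase (chromosome 12, 79130777 to 79156301, plus strand), was close to the limit of detection. It had 0.254, 0.0285 and 0.170 normalized counts in the control libraries and 0.129, 0.128 and 0.0627 with DTA-1, which came from 9.46, 1.00 and 6.00 estimated counts and from 4.02, 4.01 and 2.00. The groups overlapped, and the gene was removed by the filter on low counts used before edgeR and limma. DESeq2 tested it and did not call it. It overlaps Vti1b on the opposite strand, which had a mean of 4514 counts, and the sources used here do not say whether counting used strand, so even these few reads may not be those of Arg2. Arginase transcripts in these cells were thus almost all of Arg1.

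Odc1, which encodes ODC, lies on chromosome 12 from 17544794 to 17551505 on the plus strand. It had 215.9, 234.6 and 200.7 normalized counts in the control libraries and 216.7, 335.5 and 321.6 with DTA-1. DTA-1 replicates 2 and 3 were above every control library, while DTA-1 replicate 1 lay among the controls, so the groups overlapped. The means were 217 ± 17.0 and 291 ± 64.9 (SD, n = 3 each), and the coefficient of variation was 7.81% among the controls and 22.3% with DTA-1. The log2 fold change was 0.42 (SE 0.14), or 1.34-fold (95% confidence interval 1.09 to 1.65), with an unadjusted p of 0.0101 and an adjusted p of 0.627 in edgeR. Without DTA-1 replicate 1, Odc1 was higher by 0.60 on the log2 scale (SE 0.07), or 1.51-fold, with an adjusted p of 0.00359 in edgeR. This fold lies just past the limit of 1.5. The lone library was thus enough to decide the call.

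Amd1, which encodes S-adenosylmethionine decarboxylase (chromosome 10, 40287458 to 40302186, minus strand), had 63.4, 81.3 and 73.7 normalized counts in the control libraries and 71.4, 75.4 and 68.8 with DTA-1. All 3 DTA-1 libraries lay inside the control range. The fitted log2 fold change was -0.02 (SE 0.10, interval -0.23 to 0.19), with an adjusted p of 0.978 in edgeR, and -0.01 without DTA-1 replicate 1.

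Srm, the spermidine synthase gene (chromosome 4, 148591503 to 148594993, plus strand), had 92.2, 87.6 and 92.2 normalized counts in the control libraries and 90.1, 105.4 and 98.8 with DTA-1. As in Odc1, DTA-1 replicates 2 and 3 were the highest and replicate 1 lay among the controls. The log2 fold change was 0.11 (SE 0.08, interval -0.06 to 0.28, adjusted p in edgeR 0.775), and 0.17 (SE 0.07, adjusted p 0.334) without DTA-1 replicate 1.

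Sms, the spermine synthase gene (chromosome X, 157443855 to 157492287, minus strand), had 64.5, 63.8 and 57.6 normalized counts in the control libraries and 67.9, 64.4 and 63.6 with DTA-1. The groups overlapped, and here DTA-1 replicate 1 was the highest library. The fitted log2 fold change was 0.08 (SE 0.08, interval -0.10 to 0.25), with an adjusted p of 0.875 in edgeR, and 0.05 without DTA-1 replicate 1. Reads of Sms can also match near-identical rows, and how such reads were counted is not given in the sources used here. There were 7 copies that matched it over at least 200 bases with at least 90% identity, and Sms-ps, a processed pseudogene, was 100% identical over 1101 bases and had a mean of 755 counts. The copies held 23.8% to 29.1% of the counts of Sms and its copies together, so the level of Sms is uncertain. With the copies summed, the log2 fold change was again 0.08 (SE 0.07).

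Sat1, the spermidine and spermine acetyltransferase that starts polyamine export and breakdown (chromosome X, 155213132 to 155216449, minus strand), had 109.6, 100.1 and 104.7 normalized counts in isotype control. In DTA-1 it had 101.7, 99.7 and 91.8, and replicates 2 and 3 were the lowest libraries, by a small margin for replicate 2. Its log2 fold change was -0.10 (SE 0.07, interval -0.26 to 0.06), with an adjusted p of 0.789 in edgeR. Leaving out DTA-1 replicate 1 gave -0.13, with an adjusted p of 0.501 in edgeR.

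Oaz1, the antizyme gene whose frame change site is printed above (chromosome 10, 80826656 to 80829290, plus strand), had 1219.6, 1054.7 and 1065.1 normalized counts in the control libraries and 1106.3, 1001.3 and 939.0 with DTA-1. Again DTA-1 replicates 2 and 3 were the lowest and replicate 1 lay inside the control range. The log2 fold change was -0.13 (SE 0.08, interval -0.31 to 0.04), with an adjusted p of 0.748 in edgeR. Leaving out DTA-1 replicate 1 gave -0.20 (SE 0.07), with an unadjusted p of 0.0196 and an adjusted p of 0.240 in edgeR. Its near copy Oaz1-ps held 3.00% to 3.61% of the counts of the pair. RNA counts do not show how often ribosomes change frame on this transcript.

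Azin1, the antizyme inhibitor gene (chromosome 15, 38487427 to 38519266, minus strand), had 103.1, 101.3 and 93.0 normalized counts in the control libraries and 91.3, 109.0 and 97.5 with DTA-1. The highest and the lowest library were both DTA-1 libraries. The means were 99.1 ± 5.40 and 99.3 ± 8.96 (SD, n = 3 each). The fitted difference was 0.00 on the log2 scale (SE 0.08, interval -0.18 to 0.18), with an adjusted p of 0.998 in edgeR, and 0.06 without DTA-1 replicate 1.

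**Figure D2:**
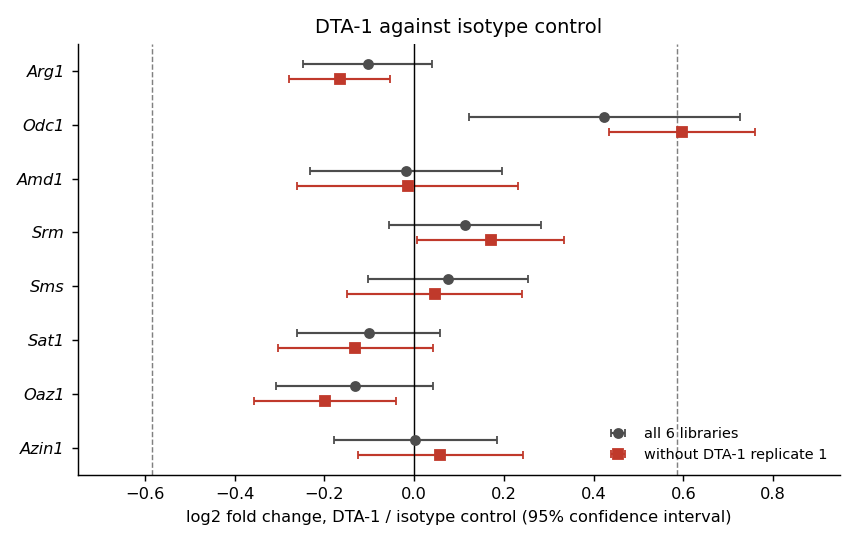
Log2 fold change of DTA-1 against isotype control (horizontal axis) with its 95% confidence interval for the 8 members tested, with all 6 libraries (grey circles) and without DTA-1 replicate 1 (red squares). Dashed lines mark 1.5-fold; with all libraries the interval of Odc1 (0.12 to 0.73) is the only one that leaves out 0, and without DTA-1 replicate 1 the intervals of Odc1, Srm, Arg1 and Oaz1 leave it out.

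Among the 8 members, 4 were higher and 4 lower on average, and the median log2 fold change was -0.01, the same as over all genes tested. Without DTA-1 replicate 1 the medians were 0.02 and -0.02. No member's groups were free of overlap with all 6 libraries (0 of 8, against 11.3% of all genes). Without DTA-1 replicate 1, the groups did not overlap in 5 of 8 members, with Odc1 and Srm higher and Arg1, Sat1 and Oaz1 lower, against 31.3% of all genes. Leaving out isotype control replicate 1 instead gave 1 of 8 (Sms higher), against 21.3% of all genes, and leaving out isotype control replicate 2 gave 2 of 8 (Odc1 higher, Sat1 lower), against 23.4%. An unadjusted p under 0.05 without DTA-1 replicate 1 was reached by 4 of 8 members (Odc1 and Srm higher, Arg1 and Oaz1 lower), against 14% of all genes. Of these, Odc1 alone passed the adjusted threshold with the fold limit.

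Levels of different genes were compared as normalized counts per kb of exon, which corrects for the annotated exon length. In isotype control, Oaz1 was the most abundant member with 435 ± 36.1 (SD, n = 3), and ranked 79 of 14069 genes with a length. Arg1 was next with 299 ± 3.71 (rank 133), above Odc1 with 63.8 ± 4.98 (rank 937) and Srm with 56.7 ± 1.65 (rank 1061). Then followed Sat1 with 37.8 ± 1.72 (rank 1636), Amd1 with 20.6 ± 2.54, Azin1 with 15.8 ± 0.863, Sms with 10.3 ± 0.629 and Arg2 with 0.106 ± 0.0799. The isotype control libraries of each pair of neighbours in this order did not overlap. The narrowest gap was that of Odc1 and Srm, whose lowest and highest control libraries were 59.0 and 57.7 per kb, and the corresponding libraries of Amd1 and Azin1 were at 17.9 and 16.5. The length used was that of the exons of all annotated transcripts of a gene merged, so the levels, ranks and order depend on the annotation. For Oaz1 (2558 bases of exon, from 80826656 to 80829290) it covers nearly the whole gene, and for Sat1 (2774 bases, from 155213132 to 155216449) most of it. This lowers their values per kb.

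**Figure D3:**
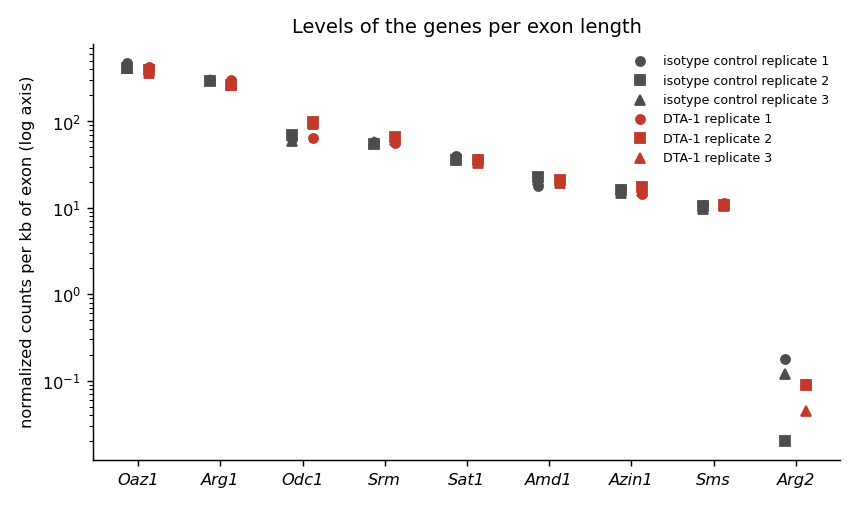
Normalized counts per kb of exon (log axis) of the 9 genes in each library, ordered by their isotype control mean, with isotype control in grey and DTA-1 in red and symbols for replicate number. The genes run from Oaz1 (435 in isotype control) and Arg1 (299) down to Sms (10.3), with Arg2 (0.106) far under the rest.

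The ratios of the opposing members followed the same libraries. Odc1 per kb was 0.133, 0.167 and 0.142 of Oaz1 per kb in the control libraries and 0.147, 0.252 and 0.257 with DTA-1. DTA-1 replicate 1 lay inside the control range, and replicates 2 and 3 were above all controls. The ratio of Azin1 to Oaz1 was 0.0346, 0.0393 and 0.0357 in the control libraries and 0.0338, 0.0445 and 0.0425 with DTA-1, where replicate 1 was the lowest and replicates 2 and 3 the highest of the 6. These ratios are of transcripts and were not tested. Their size depends on the annotated exon lengths, whereas their order over the libraries does not.

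Odc1 matched 18 rows of the table at the same identity and length. Of these 17 were pseudogenes, which held 1.07% to 1.5% of the counts of the gene with these copies. The other was AW146154, a protein-coding gene (92.2% identity over 913 bases, mean 276 counts), with which the share was 3.44% to 5.32%. With the 17 pseudogenes summed, the log2 fold change of Odc1 was 0.42 (SE 0.14). Amd1 had 7 copies, Amd2 among them, with 99.6% identity over 3202 bases. They held 2.26% to 4.50% of the summed counts, and the summed log2 fold change of Amd1 was -0.01. How reads that match both Amd1 and Amd2 were counted is not given, so the split between them, and the level of Amd1, are uncertain. Srm had 2 near copies and Sat1 had 1, which held at most 0.159% of the summed counts in any library.

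The other genes of the pathway were taken from lists of 54 genes, of which 38 were tested. They were divided evenly, with 19 higher and 19 lower and a median log2 fold change of 0.00. With all 6 libraries 0 of 38 were called by edgeR, against 0% of all genes. DESeq2 called 0 of the 42 it tested, against 0.152% of all genes, and limma 0 of 38, against 0%. An unadjusted p under 0.05 was given by edgeR to 4 of 38 (Ass1, Atp13a3 and Myc with higher means, Oaz2 with a lower one), against 7.22% of all genes. The groups did not overlap in 7 of 38 (Azin2, Atp13a3 and Myc higher, Slc7a3, Oaz2, Adi1 and Dhps lower, named here after their values were seen), against 11.3%. Without DTA-1 replicate 1, edgeR called 1 of 40, Ass1, against 0.744% of all genes, and gave 6 of 40 an unadjusted p under 0.05, against 14%. The groups of 15 of 40 did not overlap, against 31.3% of all genes. Both of these counts include Mycl, which passed the filter on low counts only in this fit.

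Of the 13 genes of arginine and ornithine supply and use, 9 were tested, 4 with higher and 5 with lower means. Ass1, whose enzyme joins citrulline and aspartate on the way back to arginine, had 53.6, 46.6 and 45.5 normalized counts in the control libraries and 49.1, 78.0 and 71.5 with DTA-1. As for Odc1, DTA-1 replicates 2 and 3 were above the other 4 libraries. Its log2 fold change was 0.45 (SE 0.15, adjusted p in edgeR 0.627), and 0.62 (SE 0.10, adjusted p 0.0140) without DTA-1 replicate 1. Oat, the ornithine aminotransferase gene and the most abundant of the list per kb, differed by 0.08 in log2 (SE 0.07) with all libraries and by 0.07 without DTA-1 replicate 1. Nos2, the inducible nitric oxide synthase that shares arginine with arginase, was not tested, with 6 counts in 1 isotype control library and 0 in the others.

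In the transport list 8 of 9 genes were tested, 4 with higher and 4 with lower means. The most abundant was Slc3a2, the heavy chain of amino acid exchangers, with 1025 ± 44.0 normalized counts in the control libraries and 979 ± 65.3 with DTA-1 (SD, n = 3 each). It differed by -0.07 on the log2 scale (SE 0.07, adjusted p in edgeR 0.864), and by -0.12 without DTA-1 replicate 1. Of 9 genes of polyamine transport 2 were tested. Atp13a2, a lysosomal polyamine exporter, differed by 0.00 in log2 (SE 0.08), and by 0.03 without DTA-1 replicate 1. Atp13a3, a polyamine transporter of the same family named here after its values were seen, had 88.0, 90.6 and 78.1 normalized counts in the control libraries and 98.8, 108 and 105 with DTA-1. All of its DTA-1 libraries, replicate 1 included, were above the controls. The difference in log2 was 0.28 (SE 0.08), with an unadjusted p of 0.00449 and an adjusted p of 0.627 in edgeR, and 0.31 (adjusted p 0.115) without DTA-1 replicate 1.

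Oaz2, a second antizyme gene, had 89.1, 79.8 and 88.1 normalized counts in the control libraries and 78.8, 72.6 and 71.7 with DTA-1. Its groups did not overlap, though the nearest libraries were close. The log2 fold change was -0.20 (SE 0.08, adjusted p in edgeR 0.655), and -0.25 (adjusted p 0.204) without DTA-1 replicate 1. Among 3 genes of polyamine oxidation and acetylation, 2 were tested, both with higher means. Smox, the spermine oxidase gene, had 152 ± 1.40 normalized counts in the control libraries and 158 ± 4.52 with DTA-1 (SD, n = 3 each) and a log2 fold change of 0.05 (SE 0.06), or 0.08 without DTA-1 replicate 1.

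Of 9 genes that supply S-adenosylmethionine or salvage methylthioadenosine, 8 were tested, 4 with higher and 4 with lower means. Mat2a, which encodes the methionine adenosyltransferase of most tissues outside the liver, had a log2 fold change of 0.01 (SE 0.07), or -0.00069 without DTA-1 replicate 1. All 4 genes of the hypusine list were tested, 2 with higher and 2 with lower means. Eif5a, whose product carries the hypusine made from spermidine, had 975, 913 and 911 normalized counts in the control libraries and 908, 1179 and 1077 with DTA-1. DTA-1 replicate 1 was the lowest library and replicates 2 and 3 were the highest. Its log2 fold change was 0.18 (SE 0.09, adjusted p in edgeR 0.717), and 0.27 (adjusted p 0.0561) without DTA-1 replicate 1.

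Myc had 127, 134 and 136 normalized counts in the control libraries and 144, 151 and 160 with DTA-1. All DTA-1 libraries, replicate 1 included, were above the controls. The difference in log2 was 0.19 (SE 0.07, adjusted p in edgeR 0.632), and 0.23 (adjusted p 0.151) without DTA-1 replicate 1. Mycl, a second MYC family gene, had 9, 0 and 1 counts in the control libraries and 1, 70 and 53, in that order, with DTA-1, and was too low to be tested with all 6 libraries. It passed the filter on low counts only without DTA-1 replicate 1, through DTA-1 replicates 2 and 3, in which it was high. Its test in that fit is therefore no support for a difference.

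**Figure D4:**
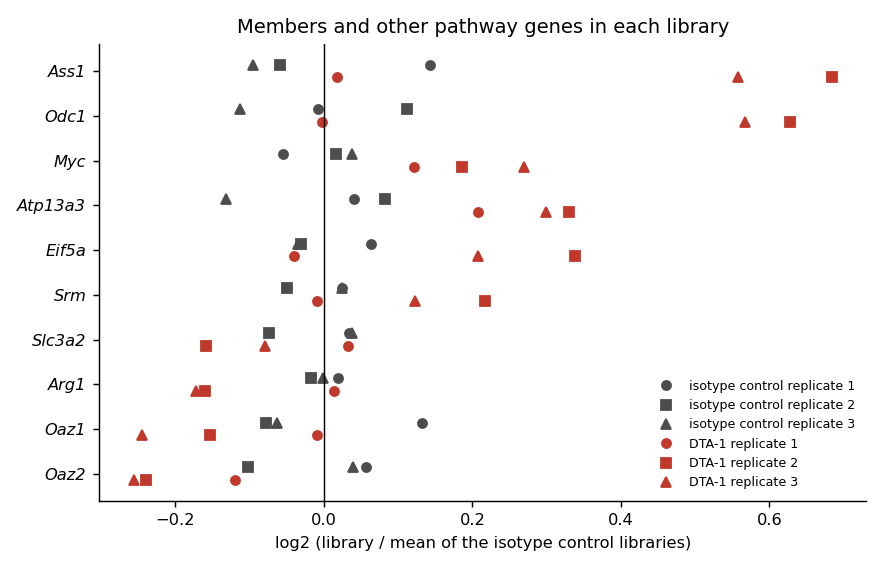
Log2 ratio of each library's normalized counts to the mean of the isotype control libraries (horizontal axis) for 4 of the members and 6 other pathway genes, with isotype control in grey and DTA-1 in red and symbols for replicate number. DTA-1 replicates 2 and 3 lie far right of the other libraries for Ass1 and Odc1, whereas for Myc and Atp13a3 all 3 DTA-1 libraries lie right of the controls.

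The genes most like Arg1 over the 6 libraries were found as those with the smallest root mean square difference of log2 values, each gene centred on its own mean, among 4441 genes with a mean of at least 50 normalized counts. They were Ifi47 (0.0115), Tmem59 (0.0147) and Dtnbp1 (0.0162). Ifi47, an interferon-inducible GTPase gene, had 135, 130 and 132 normalized counts in the control libraries and 132, 117 and 115 with DTA-1, with DTA-1 replicates 2 and 3 lowest, as in Arg1. This likeness is a description over 6 libraries that share their depth and normalization.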

How the data were processed

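RNA of 6 libraries of sorted mouse ILC2s was sequenced. Per the labels and methods, the authors used bcl2fastq 2.17.1.14, STAR 2.5.3a and Partek Genomics Suite 7.0 with build mm10, and deposited expected counts (estimated numbers of reads of each gene, not normalized). With no tolerance, 43.1% of the values above 0 were whole, and 60.9% of all values were 0. The annotation release, strand setting and treatment of reads with several positions are not given in the sources used here. GENCODE mouse release 21 gave exon lengths, and 48184 of its 49612 symbols found in the table started at the table's coordinate.

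Counts were rounded and fitted with edgeR 4.0.16 (R 4.3.3) by a quasi-likelihood F test with TMM, robust dispersions and no covariate, after filterByExpr removed low genes, and p-values were adjusted by Benjamini-Hochberg over all genes tested. Normalized counts are CPM from the rounded counts. In simulated data for this comparison, 190 of 200 genes with a 2-fold change among 14361 were recovered, with 9 false calls. The simulation gave every gene the same dispersion (0.0256), changed no low genes and held no library that stood apart from its group. It checks the procedure and does not show the power for these libraries or for smaller changes. An exact permutation test of 3 against 3 cannot go below 0.1 and was not run. Alternatives were other size factors, limma 3.58.1, DESeq2 1.42.0, other filters, a replicate block and each library left out. The alternative with near copies (pseudogenes, and Amd2) summed (blastn 2.17.0) was added after the data were seen. The members, the lists and the rule for named genes (the members, the most abundant gene of each list, and list genes past an unadjusted p of 0.05 with 1.5-fold with or without DTA-1 replicate 1) were chosen with earlier results of these data known. Genes of ILC2s, macrophages, neutrophils, eosinophils and mast cells, fibroblasts, adipocytes, endothelial cells and T cells were listed as markers, and 1 further marker list is not reported here.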

Additional observations from a re-analysis of the deposited data

How the results depend on the processing

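Of 112 member fold changes under alternatives, 105 kept their direction and their side of the threshold. The log2 fold change of Odc1 ran from 0.32 to 0.60 and its adjusted p from 0.00359 to 0.999 (edgeR, limma and DESeq2), and the call was made only without DTA-1 replicate 1. The sign reversed only in Azin1 and Amd1: Azin1 was -0.036 with total counts and -0.00016 with limma, and ran from -0.065 (without DTA-1 replicate 2) to 0.059 (without DTA-1 replicate 1) as libraries were left out, also below 0 without isotype control replicate 3 (-0.043). Amd1 ran from -0.106 (without isotype control replicate 1) to 0.068 (without isotype control replicate 2), also above 0 without DTA-1 replicate 3 (0.011). The cause was not tested. Over all genes, 0 calls became 25 with DESeq2's Wald test, 2 without a filter on low counts and 337 with an unadjusted p and 1.5-fold. Leaving out each library in turn gave 0 to 111 calls over all genes, 0 to 1 among the members, 0 to 1 among the other pathway genes, and 0 to 5 members whose groups did not overlap. The highest of each was without DTA-1 replicate 1, and leaving out isotype control replicate 1 or 2 gave 1 or 2 members without overlap (against 21.3% or 23.4% of all genes). With the replicate block 1 gene was called, which was no member. Deviations of log2 values from the group means correlated at -0.0069 to 0.0152 between same-numbered libraries. Libraries with different numbers gave -0.0145 to 0.0161. These values show no sign of pairing by number, but with 3 libraries a group they cannot exclude it. Total counts moved the median gene by -0.04. Arg2 was too low to pass the filter used before edgeR and limma, and DESeq2, which tested it, did not call it. Each of the 8 other members had at least 2009 counts in every library.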

Other observations

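The summed normalized counts of 7 eosinophil and mast cell markers were 10.4 to 16.2 in isotype control and 12 to 30.5 in DTA-1, and those of 8 fibroblast markers were 2.82 to 9.41 and 0.288 to 3.98. Endothelial markers summed to 18.4 to 24.4 and 10.6 to 18.3, nearly all of it Pecam1 (18.4 to 24.4 and 10.4 to 18.3), and T cell markers to 15.5 to 18.6 and 15.2 to 21. Neutrophil markers reached at most 1.05 and adipocyte markers at most 0.032. Cdh5 and Cd8a were at 0 in every library. Their part in the levels of the arginase and polyamine genes was not tested.

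By the same measure of likeness as for Arg1, the genes nearest to Odc1 were Traf3 (0.0545), Il10ra (0.0589) and Il27ra (0.0626), named after their values were seen. Traf3, an adaptor of TNF receptor signalling, had 47.3, 46.6 and 43.2 normalized counts in the control libraries and 46.5, 69.9 and 64.1 with DTA-1. Il10ra and Il27ra, both cytokine receptor genes, likewise had their highest levels in DTA-1 replicates 2 and 3 (182 and 178 for Il10ra, 205 and 197 for Il27ra) against 116 and 137 in DTA-1 replicate 1. The members nearest to Arg1 were Sat1 (0.0514) and Oaz1 (0.0642).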
